A study of Mus musculus with 15 samples.

Results

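Expression of 10 genes that mark recruited and lipid-associated macrophages (Trem2, Gpnmb, Spp1, Lgals3, Itgax, Cd9, Fabp5, Mmp12, Clec7a and Lyz2) was followed in mouse liver across age and S6K1 genotype. The genes were chosen by name for their known expression in macrophages that enter injured or fatty tissue, with earlier results of these data known. All 10 were among the 37991 genes of the count table, and all 10 passed the filter on low counts, which left 14258 genes for testing. RNA sequencing was performed on whole livers of 15 female mice of a C57BL/6 inbred strain, 1 library per animal and 5 libraries per group. Young WT mice were killed at 90 days of age and both old groups at 600 days. Old KO mice had the genotype S6K1 KO, in which ribosomal S6 kinase 1 is deleted in the germline and so in all tissues. Both genotypes came from heterozygous breeding. There were no young KO livers, so the genotype was compared at 600 days alone and the effect of age was measured in WT mice alone. Libraries are named by group and by the animal number of their label, which is 1, 2, 3, 4 and 6 in young WT, 1, 4, 5, 7 and 10 in old WT, and 1, 2, 4, 5 and 6 in old KO mice.

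Resident liver macrophages, the Kupffer cells, line the sinusoids, and monocytes from the blood can enter the liver and become macrophages there. In steatotic or injured tissue some of these cells take up lipid and cell debris and switch on a program that includes the lipid receptor Trem2, the membrane glycoprotein Gpnmb and the secreted protein osteopontin (Spp1). Trem2 signals through the adaptor Tyrobp and the kinase Syk, and Clec7a (dectin-1), a receptor for fungal beta-glucans, signals through Syk as well. None of these genes is exclusive to such cells. Spp1, Cd9 and Lgals3 are also made by bile duct and other cells, and Itgax also by dendritic cells. In whole liver, fewer cells of a type and less RNA per cell cannot be told apart.

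Total counts per library lay between 21801754 and 38065359. Expression is given in CPM, the usual unit of read counts relative to library size, here with TMM-adjusted sizes. Rps6kb1, the gene of S6K1, stood at 34.6 to 45.4 CPM in old WT livers and at 15.2 to 20.8 CPM in old KO livers, with no overlap. A set of 12 general macrophage genes (among them Csf1r, Adgre1, C1qa, C1qb, C1qc, Spi1 and Cd68) summed to 191 and 180 CPM in young WT livers 1 and 2, and to 299 to 355 CPM in the other 3 young WT livers. The same sum was 274 to 438 CPM in old WT and 144 to 244 CPM in old KO livers. The 6 general leukocyte genes, such as Ptprc, summed to 35.7 to 70.2, 59.6 to 81.0 and 39.4 to 56.8 CPM in the 3 groups. With age 4 of them rose, against 9.92% of all genes tested. These were Cd48, Cd52, Coro1a and Ptpn6, with log2 fold changes of 0.26 to 1.15 and edgeR adjusted p of 0.0138 to 0.0481.

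Positions are given on NCBIM37, the build also called mm9, and all 10 genes are protein-coding there. Among the receptors and surface proteins, Trem2 (ENSMUSG00000023992) lies on the plus strand at chr17:48485726-48493472 and Clec7a (ENSMUSG00000079293) on the minus strand at chr6:129411611-129422790. Itgax (ENSMUSG00000030789), which encodes the integrin CD11c, lies on the plus strand at chr7:135273061-135294171. Cd9 (ENSMUSG00000030342), a tetraspanin, lies on the minus strand at chr6:125410284-125444809. Gpnmb (ENSMUSG00000029816) lies on the plus strand at chr6:48986517-49020928. The secreted proteins are osteopontin (Spp1, ENSMUSG00000029304, plus strand, chr5:104864137-104870069), galectin-3 (Lgals3, ENSMUSG00000050335, plus strand, chr14:47987426-48005835), lysozyme (Lyz2, ENSMUSG00000069516, minus strand, chr10:116714390-116719377) and macrophage elastase (Mmp12, ENSMUSG00000049723, plus strand, chr9:7344381-7369499). Fabp5 (ENSMUSG00000027533), a cytosolic fatty acid carrier, lies on the plus strand at chr3:10012548-10016607. Exons of Cd9 overlap those of Gm16749 on the other strand by 30 bases, and exons of Mmp12 overlap those of Mmp1b by 157 bases, and both partners had 0 counts in all libraries.

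Promoters of 9 of the 10 genes, 12 start sites in all, were taken from RefSeq (GRCm38.p6), from 250 bases before to 50 bases after each start site. They were located in NCBIM37 by exact match. The windows were searched on both strands for GAGGAA, the core of the site bound by the myeloid factor PU.1 (Spi1), and for its longer form GAGGAAGT, which contains the core. The AP-1 motif TGANTCA, the E-box CACGTG bound by lysosomal regulators and the C/EBP motif TTGCNNAA were also searched. The 250 bases before the start site are shown for the 4 genes that rose with age and hold a motif there, 5′ to 3′ on the gene's strand, with motif matches in capitals.
Trem2, chr17:48485476-48485725, plus strand: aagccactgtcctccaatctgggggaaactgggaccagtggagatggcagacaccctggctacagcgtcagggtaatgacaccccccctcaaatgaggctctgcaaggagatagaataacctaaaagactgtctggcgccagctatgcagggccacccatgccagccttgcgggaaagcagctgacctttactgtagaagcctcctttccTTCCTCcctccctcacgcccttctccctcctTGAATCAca
Clec7a, chr6:129422798-129423047, minus strand: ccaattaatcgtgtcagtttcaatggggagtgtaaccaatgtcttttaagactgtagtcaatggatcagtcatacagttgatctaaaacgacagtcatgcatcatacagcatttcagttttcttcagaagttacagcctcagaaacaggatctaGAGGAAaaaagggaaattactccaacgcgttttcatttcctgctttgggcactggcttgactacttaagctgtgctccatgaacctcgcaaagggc
Itgax, chr7:135272814-135273063, plus strand: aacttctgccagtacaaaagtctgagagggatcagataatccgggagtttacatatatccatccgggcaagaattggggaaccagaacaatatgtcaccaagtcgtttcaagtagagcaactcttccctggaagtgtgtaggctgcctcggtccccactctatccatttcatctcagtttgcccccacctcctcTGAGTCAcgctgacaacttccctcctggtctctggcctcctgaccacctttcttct
Spp1, chr5:104863880-104864129, plus strand: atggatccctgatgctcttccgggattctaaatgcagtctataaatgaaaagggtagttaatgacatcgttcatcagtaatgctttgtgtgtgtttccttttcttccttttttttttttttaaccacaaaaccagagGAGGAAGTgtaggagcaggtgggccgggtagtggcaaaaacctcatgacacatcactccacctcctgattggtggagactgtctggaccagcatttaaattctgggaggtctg

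Capitals mark GAGGAAGT in Spp1 (first base at -113 from the start site), GAGGAA in Clec7a (-96) and, read on the other strand, in Trem2 (-40), and TGANTCA in Trem2 (-9) and Itgax (-56). The core GAGGAA occurred in 5 of the 12 windows, from 4 genes (Clec7a, in overlapping windows, Mmp12, Spp1 and Trem2). It occurred in 28.3% of all 32851 promoters of that length. The longer form occurred in 2 windows (Mmp12 and Spp1) and in 3.2% of all promoters. The AP-1 motif occurred in 4 windows (Gpnmb, Itgax, Mmp12 and Trem2) and in 7.81% of all promoters. The C/EBP motif occurred in 3 windows (Mmp12, Spp1 and Trem2) and in 10.8%, and the E-box in 0 of the 12 windows and in 7.15%. Windows of Cd9, Lgals3 and Lyz2 held none of these letters. A match is a description of the sequence and not a bound site.

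Comparison of old with young WT livers asked how the 10 genes change with age. Of the 10 genes, 7 rose with age (Trem2, Clec7a, Itgax, Gpnmb, Spp1, Lgals3 and Lyz2) and none fell, whereas 9.92% of the 14258 genes tested were called higher. The median log2 fold change was 0.85 over the 10 genes and 0.00797 over all genes tested. In 3 genes (Trem2, Gpnmb and Itgax) every old WT library lay above every young WT library, which held for 5.78% of genes tested. Values are listed below in the order of the animal numbers above.

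Trem2, the receptor that senses lipids and lipoproteins, was at 4.24, 4.98, 4.4, 4.04 and 3.54 CPM in young WT, at 6.59, 7.04, 5.67, 9.24 and 7.53 CPM in old WT and at 7.26, 5.52, 6.55, 6.41 and 5.01 CPM in old KO livers. All old livers of both genotypes lay above all young ones, and the old genotypes overlapped. The rise with age was 1.7-fold (log2 fold change 0.76, SE 0.14, edgeR adjusted p = 0.00252), and it kept its call when any 1 of the 10 libraries was left out.

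Itgax also separated the WT ages in full. It was at 0.763, 0.489, 1.08, 0.633 and 1.42 CPM in young WT, at 2.62, 2.24, 3.04, 3.34 and 2.46 CPM in old WT and at 1.87, 1.16, 1.41, 2.1 and 0.743 CPM in old KO livers. Old WT livers were above all others, and old KO livers overlapped young WT livers. Itgax rose 3.17-fold with age (log2 fold change 1.67, SE 0.29, edgeR adjusted p = 0.00154) and kept its call when any 1 library was left out. Dendritic cells carry CD11c too, and of 8 dendritic cell genes tested 6 had higher values with age (median log2 fold change 0.39) but 0 were called higher, and Zbtb46 fell. The full list of 10 summed to 16.2 to 18.8 CPM in young WT, 15.7 to 20.7 CPM in old WT and 15.3 to 19.5 CPM in old KO livers. Without Zbtb46, a choice made after seeing the data, the sums were 5.28 to 10.7, 8.14 to 13 and 6.77 to 10.4 CPM, and their part in the rise of Itgax was not tested.

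Gpnmb, which lysosomal stress induces in macrophages, had the lowest level per length of the 10 in young livers (0.122 CPM per kb). It was at 0.421, 0.611, 0.554, 0.392 and 0.345 CPM in young WT, at 2.34, 1.07, 2.39, 17.3 and 1.76 CPM in old WT and at 2.28, 1.13, 1.16, 0.964 and 0.65 CPM in old KO livers. Old WT liver 7 was 17.3 CPM against 1.07 to 2.39 CPM in the other 4, and every old liver was above every young one. The rise with age was 10.5-fold (log2 fold change 3.39, SE 0.69, edgeR adjusted p = 0.00414). Without old WT liver 7 the log2 fold change was 2.02 and the call held. Old WT liver 7 also had the highest summed neutrophil genes (15 CPM, against 3.22 to 6.84 CPM in the other old WT livers) and bile duct genes (53.9 CPM, against 22.5 to 35.4 CPM), and their part in the result was not tested.

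**Figure D1:**
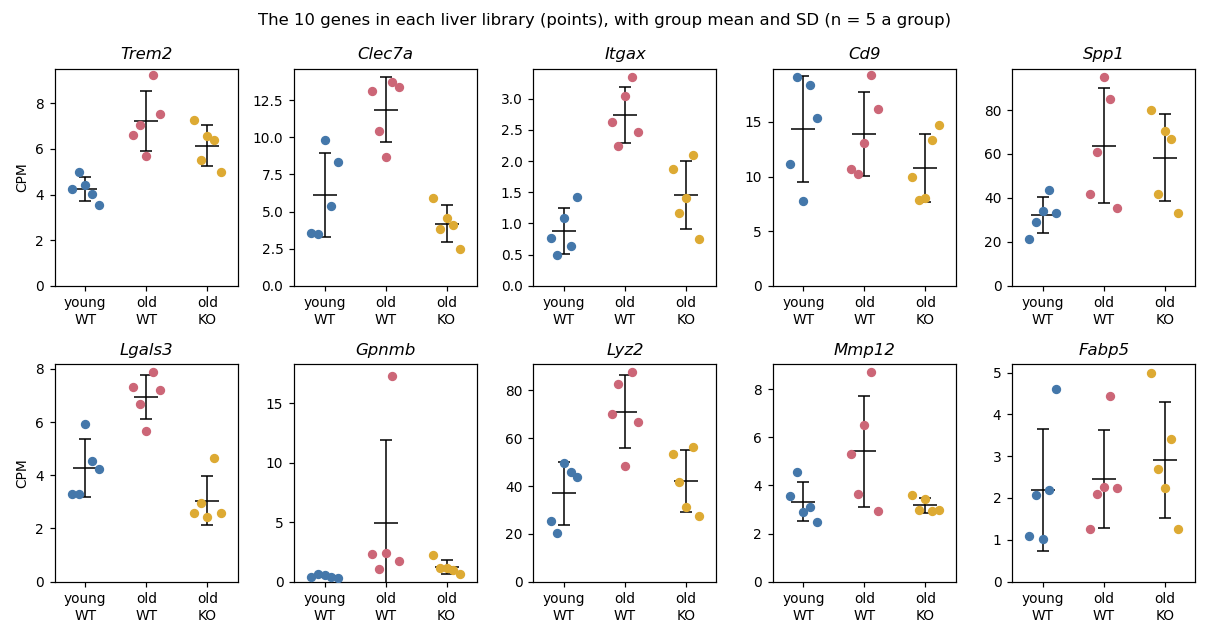
CPM (linear axis from 0) of the 10 genes in each library, with 1 point per animal and the mean and SD of 5 animals per group as bars. For Trem2 and Gpnmb all old livers lie above all young ones, and for Lgals3, Clec7a and Itgax all old KO livers lie below all old WT livers. The lower end of the SD bar of Gpnmb in old WT is cut off at 0.

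Lyz2 and Spp1 had the highest levels per length of the 10 genes in WT livers of both ages. Lyz2, the lysozyme of myeloid cells, was at 25.3, 20.3, 49.6, 45.9 and 43.9 CPM in young WT, at 70.3, 82.8, 48.3, 87.5 and 66.7 CPM in old WT and at 53.6, 41.8, 31.4, 56.2 and 27.5 CPM in old KO livers. It rose 1.92-fold with age (log2 fold change 0.94, SE 0.25, edgeR adjusted p = 0.0179), with 1 old WT liver (5) inside the young range. Young WT livers 1 and 2, which were lowest, were also the lowest in general macrophage genes, and their part in the result was not tested.

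Spp1 encodes osteopontin, an extracellular matrix protein and a ligand of integrins and Cd44. It was at 21.4, 28.9, 34.1, 43.5 and 33.2 CPM in young WT, at 42.0, 60.7, 95.2, 85.2 and 35.2 CPM in old WT and at 79.8, 41.7, 70.4, 66.9 and 33.1 CPM in old KO livers. Both old groups were spread widely, and each had 2 livers within the young range. The rise with age was 1.98-fold (log2 fold change 0.98, SE 0.29, edgeR adjusted p = 0.0262).

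Lgals3, the lectin galectin-3, was at 3.29, 3.3, 5.93, 4.55 and 4.23 CPM in young WT, at 7.31, 6.69, 5.67, 7.88 and 7.2 CPM in old WT and at 2.58, 2.94, 2.44, 4.65 and 2.6 CPM in old KO livers. Old WT livers were high with 1 overlap with the young, and 4 of the 5 old KO livers were below all WT livers of either age. Lgals3 rose 1.63-fold with age (log2 fold change 0.71, SE 0.19, edgeR adjusted p = 0.0181).

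Clec7a followed the same order of groups. It was at 3.53, 3.51, 9.81, 5.39 and 8.36 CPM in young WT, at 13.1, 10.4, 8.71, 13.7 and 13.4 CPM in old WT and at 5.92, 3.81, 4.54, 4.11 and 2.51 CPM in old KO livers. Young WT livers were spread over a wide range, and liver 3 lay within the old WT range. The rise with age was 1.95-fold (log2 fold change 0.96, SE 0.27, edgeR adjusted p = 0.0237).

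Mmp12, Cd9 and Fabp5 did not pass the threshold with age. Mmp12, an elastase that macrophages secrete, was at 3.58, 4.58, 2.9, 3.1 and 2.5 CPM in young WT and at 5.31, 3.66, 6.5, 8.72 and 2.94 CPM in old WT livers (log2 fold change 0.70, SE 0.24, edgeR adjusted p = 0.0543). Cd9 had nearly equal means of 14.3 ± 4.83 and 13.9 ± 3.83 CPM (SD, n = 5), a log2 fold change of -0.05 with SE 0.25 and an edgeR adjusted p of 0.919. Fabp5 ranged from 1.01 to 4.61 CPM in young and from 1.25 to 4.43 CPM in old WT livers (log2 fold change 0.18, SE 0.43, edgeR adjusted p = 0.799). For both of these genes the spread within a group covered the difference between groups.

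Single libraries decided several of the calls with age. Without young WT liver 1 the count fell from 7 to 3 (Trem2, Gpnmb and Itgax), with adjusted p of 0.0703 for Spp1, 0.0519 for Lgals3, 0.0615 for Clec7a and 0.0506 for Lyz2 (edgeR). Spp1 also lost its call without young WT liver 2, old WT liver 5 or old WT liver 7, and Clec7a without young WT liver 2 or 4 or old WT liver 1, with adjusted p of 0.0525 to 0.0771 (edgeR). Mmp12 in turn passed without young WT liver 2 or without old WT liver 4 or 10, at an edgeR adjusted p down to 0.0154.

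Comparison of old KO with old WT livers asked how loss of S6K1 bears on the same genes. Of the 10 genes, 2 fell in old KO livers (Lgals3 and Clec7a) and none rose, whereas 0.421% of genes tested were called lower. The median log2 fold change of the 10 genes was -0.76 and that of all genes tested 0.000797. In 3 genes (Lgals3, Clec7a and Itgax) every old KO library lay below every old WT library, which held for 2.08% of genes tested. At an unadjusted p under 0.05 the count was 6 (Gpnmb, Lgals3, Itgax, Mmp12, Clec7a and Lyz2), all with lower values, where 6.8% of genes tested were lower at that p.

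Clec7a was 2.83-fold lower in old KO livers, at 4.18 ± 1.23 CPM against 11.9 ± 2.21 CPM (SD, n = 5), with a log2 fold change of -1.50, SE 0.28 and an edgeR adjusted p of 0.0292. Lgals3 was 2.28-fold lower, at 3.04 ± 0.918 CPM against 6.95 ± 0.834 CPM, with a log2 fold change of -1.19, SE 0.20 and an edgeR adjusted p of 0.0205. Both old KO means were below the young WT means of 6.12 and 4.26 CPM. These 2 calls were close to the threshold in edgeR, and DESeq2 called both genes too (DESeq2 adjusted p = 7.29e-06 for Lgals3). Both were lost without old WT liver 1 or 4 or old KO liver 2, 4 or 6, and that of Clec7a also without old WT liver 7 or 10 or old KO liver 5 (edgeR adjusted p of 0.051 to 0.089), while the log2 fold changes stayed at -1.40 to -1.12 for Lgals3 and -1.66 to -1.37 for Clec7a.

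Itgax was at 1.46 ± 0.543 CPM in old KO against 2.74 ± 0.443 CPM in old WT livers, without overlap, but did not pass the threshold (log2 fold change -0.91, SE 0.28, edgeR adjusted p = 0.174). Lyz2 was at 42.1 ± 12.8 against 71.1 ± 15.4 CPM (log2 fold change -0.75, SE 0.25, edgeR adjusted p = 0.223). Mmp12 was at 3.18 ± 0.307 against 5.43 ± 2.31 CPM (log2 fold change -0.77, SE 0.25, edgeR adjusted p = 0.194), and its 5 old KO values lay within 2.93 to 3.59 CPM while the old WT values spread from 2.94 to 8.72 CPM. Gpnmb had a log2 fold change of -1.98 with SE 0.63 (edgeR adjusted p = 0.194), which was -0.61 without old WT liver 7.

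Trem2, Spp1, Cd9 and Fabp5 had the smallest differences between the old genotypes. Trem2 was at 6.15 ± 0.889 against 7.21 ± 1.32 CPM (log2 fold change -0.23, SE 0.14, edgeR adjusted p = 0.563). Spp1 was at 58.4 ± 19.9 against 63.6 ± 26.2 CPM (log2 fold change -0.12, SE 0.28, edgeR adjusted p = 0.922). Cd9 (log2 fold change -0.37, SE 0.25) and Fabp5 (0.26, SE 0.42) had edgeR adjusted p of 0.617 and 0.88. A p that misses the threshold does not show that the genotypes were alike.

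**Figure D2:**
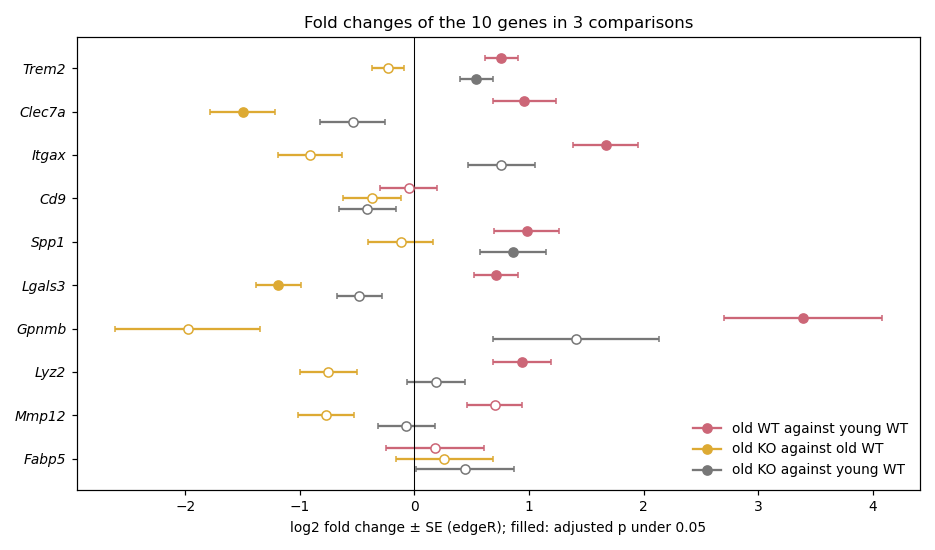
Log2 fold change with SE (horizontal axis, edgeR) of the 10 genes in 3 comparisons, with filled points where the adjusted p was under 0.05. With age 7 points are filled and lie right of 0, between old KO and old WT livers 2 are filled and lie left of 0 (Clec7a and Lgals3), and between old KO and young WT livers 2 are filled and lie right of 0 (Trem2 and Spp1).

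Old KO livers were also set against young WT livers, which differ from them in both age and genotype. This comparison shares the old KO and the young WT libraries with the other comparisons. Of the 10 genes 2 were higher in old KO livers (Trem2 and Spp1), with 12.0% of genes tested called higher, and 0 were lower, with 11.3% of genes tested called lower. Trem2 was 1.45-fold higher (log2 fold change 0.54, SE 0.14, edgeR adjusted p = 0.0139) and kept its call when any 1 library was left out. Spp1 was 1.81-fold higher (log2 fold change 0.86, SE 0.29, edgeR adjusted p = 0.0399), and its call was lost without young WT liver 1, 2, 3 or 6 or old KO liver 1, 4 or 5 (adjusted p of 0.0545 to 0.0994). Trem2 and Gpnmb were the 2 genes with all old KO livers above all young WT livers, which held for 7.32% of genes tested. Gpnmb itself had a log2 fold change of 1.41 with SE 0.73 (edgeR adjusted p = 0.171), from a mean of 0.465 ± 0.113 to one of 1.24 ± 0.619 CPM. It passed when the fit held the 10 libraries of this comparison alone (edgeR adjusted p = 0.0117). Itgax (0.76, adjusted p = 0.073) had a higher value and Lgals3 (-0.48, adjusted p = 0.0878) a lower one, both short of the threshold in edgeR. Itgax passed without young WT liver 6 or old KO liver 6 (edgeR adjusted p down to 0.0223), and Lgals3 without old KO liver 5 (adjusted p = 0.0166).

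Since general macrophage transcripts differed between the groups too, each gene was set against the mean of the 12 macrophage common genes of the same library, on the scale of log2 of CPM plus 0.1. That mean was 3.79 in young WT, 4.30 in old WT and 3.33 in old KO livers. The difference was compared by exact 2-sided permutation over the 252 assignments of 5 against 5 libraries, for which the smallest p is 0.00794. Adjustment was over the 30 tests of 10 genes in 3 comparisons. With 1 library left out there are fewer assignments, and the exact p moves in coarser steps. Because the macrophage mean itself moved, a gene with no change at all would shift by -0.51 with age, by 0.97 between the old genotypes and by 0.46 between old KO and young WT livers, and the medians over all genes tested were -0.50, 0.98 and 0.46. A shift near 0 is that of a gene that moved with the macrophage genes, and each shift is read against these values.

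Relative to the macrophage genes, Trem2 had differences of -0.94 to -0.45 in old KO against -1.79 to -1.02 in old WT livers, without overlap. The shift was 0.75 on the log2 scale (exact permutation p = 0.00794, adjusted p = 0.034), below the 0.97 of a gene with no change. Of all genes tested 58.7% were higher at the same smallest p, so Trem2 differed from the macrophage genes as most genes did. Lgals3, which fell in old KO livers, moved by -0.22 relative to the macrophage genes (exact permutation p = 0.294, adjusted p = 0.44). Clec7a moved by -0.54 (exact permutation p = 0.0238, adjusted p = 0.0595). Fabp5 had a shift of 1.19 (exact permutation p = 0.0159, adjusted p = 0.0529). Of the 10 genes Trem2 alone passed. When any 1 old KO library was left out its shift was 0.69 to 0.82 and missed the threshold (adjusted permutation p of 0.0595 to 0.068), and without old WT liver 4 Clec7a passed (adjusted permutation p = 0.0433), as did Fabp5 without old WT liver 5 or 7 (0.0476 and 0.034).

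With age, Itgax rose by 1.10 more than the macrophage genes (exact permutation p = 0.00794, adjusted p = 0.034) and Lyz2 by 0.48 more (the same p values), each without overlap, where 0.582% of genes tested were higher at that p. Gpnmb had a shift of 1.90 and Clec7a one of 0.53, both at an exact permutation p of 0.0238 and an adjusted p of 0.0595. Trem2 (0.23), Lgals3 (0.21) and Spp1 (0.40) had exact permutation p of 0.468, 0.246 and 0.357. The shift of Itgax was 0.55 with a pseudocount of 1 CPM and then missed the threshold, at an adjusted permutation p of 0.0992. When any 1 young WT library was left out it was 0.97 to 1.20, at an adjusted permutation p of 0.0529, and without old WT liver 4 Gpnmb and Clec7a passed (0.0298 and 0.0433).

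Between old KO and young WT livers 4 genes stood higher relative to the macrophage genes, as did 9.87% of genes tested. They were Gpnmb (1.62), Spp1 (1.28), Itgax (1.14) and Lyz2 (0.68), each without overlap between the groups and each at an exact permutation p of 0.00794, adjusted 0.034. The shift of Lyz2 exceeded the 0.46 of a gene with no change by less than the others did. Lyz2 itself had a log2 fold change of 0.19 between these groups (edgeR adjusted p = 0.624). Trem2 had a shift of 0.99 (exact permutation p = 0.0159, adjusted p = 0.0529), and passed without young WT liver 2 (adjusted permutation p = 0.034). Gpnmb missed the threshold when any 1 old KO library was left out, at shifts of 1.46 to 1.73 and adjusted permutation p of 0.0595 to 0.068. Lgals3 (-0.02) and Clec7a (-0.01) stood at nearly the same distance from the macrophage genes in both groups, with ranges of -2.20 to -1.30 against -2.15 to -1.47 for Lgals3 and of -1.48 to -0.97 against -1.51 to -0.89 for Clec7a.

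**Figure D3:**
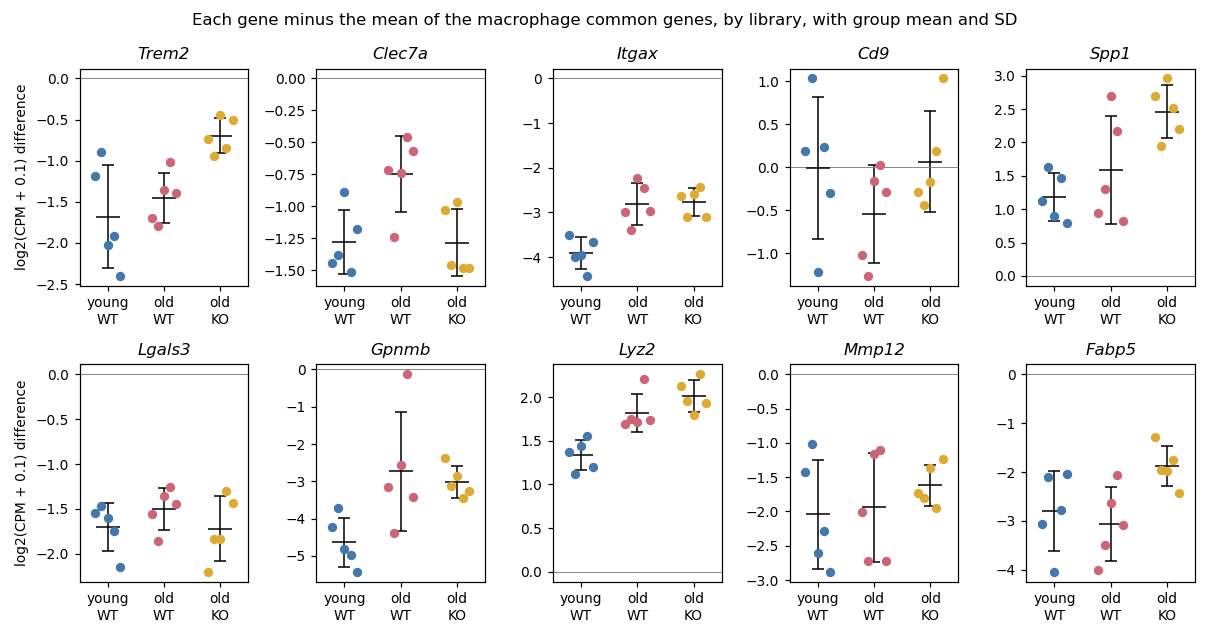
Difference between each gene and the mean of 12 macrophage common genes in the same library (vertical axis, log2 of CPM plus 0.1), 1 point per animal with group mean and SD. The old KO points of Trem2 all lie above the old WT points, and the old WT points of Itgax and Lyz2 all lie above the young WT points.

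Other genes of the same biology were examined as lists. Of 30 further lipid-associated macrophage genes, all of which passed the filter, 10 rose with age and none fell, against 9.92% of genes tested, and their median log2 fold change was 0.40. Among those that rose were Lgals1 (galectin-1, log2 fold change 2.66), the cathepsin Ctsb (0.64), the acid phosphatase Acp5 (0.58), the actin capping protein Capg (1.35) and the lysosomal cholesterol carrier Npc2 (0.40), with edgeR adjusted p between 0.000172 and 0.0009. Lgals1 went from 4.51 CPM in young to 28.3 CPM in old WT livers on average. In old KO against old WT livers 2 of the 30 fell, against 0.421% of genes tested, with a median of -0.24 over the 30. These were the adaptor Tyrobp (-1.05, edgeR adjusted p = 0.029) and the endosomal protein Cd68 (-1.18, adjusted p = 0.0384). Several of the 30, such as Apoe with a mean of 12700 CPM in old WT livers, are also strongly expressed by hepatocytes.

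Between old KO and young WT livers 7 of these 30 were higher and 2 lower, against 12.0% and 11.3% of genes tested. Lgals1 (log2 fold change 1.96, edgeR adjusted p = 0.000805) was among those higher. Atp6v0d2, a subunit of the vacuolar proton pump, was at 9.54, 21.5 and 51.7 CPM on average in young WT, old WT and old KO livers, with edgeR adjusted p of 0.128 with age, 0.329 with genotype and 0.00463 between old KO and young WT livers. The lipid droplet protein Plin2 fell between young WT and old KO livers (-0.93, edgeR adjusted p = 0.0256).

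Genes of recruited monocytes numbered 19, of which 17 were tested, with a median of 0.86 with age. With age 7 of the 17 were called higher, against 9.92% of all genes tested. They were the monocyte genes Ms4a7 (log2 fold change 1.62), F13a1 (1.96), S100a4 (2.02), the chemokine receptors Cx3cr1 (1.74) and Ccr2 (1.06), Ly6c2 (1.48) and Chil3 (1.86), with edgeR adjusted p from 0.00379 to 0.0485. All 7 were low, with means of 0.361 to 3.06 CPM in old WT livers. Between the old genotypes 15 of the 17 had lower values, with a median of -0.74, and none of these 7 was called. Their log2 fold changes ran from -1.85 for Chil3 (edgeR adjusted p = 0.18) through -0.90 for S100a4, -0.86 for F13a1, -0.66 for Ms4a7 and -0.37 for Ccr2 to -0.05 for Ly6c2 and 0.12 for Cx3cr1. The 2 genes of the list that fell in old KO livers were Cd14, a coreceptor for lipopolysaccharide (-1.04, edgeR adjusted p = 0.0247), and Csf2rb, the shared beta chain of cytokine receptors (-1.15, adjusted p = 0.000899). The share of all genes tested that fell was 0.421%.

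Signalling partners of Trem2 and Clec7a numbered 12, of which 11 were tested. Tyrobp (log2 fold change 0.63, edgeR adjusted p = 0.0315) and the adaptor Blnk (1.20, adjusted p = 0.00184) rose with age and fell in old KO livers (-1.05, adjusted p = 0.029, and -1.07, adjusted p = 0.0377). The shares of all genes tested were 9.92% higher with age and 0.421% lower in old KO livers. Which cells made the Tyrobp and Blnk transcripts was not tested. Log2 fold changes of the 11 between the old genotypes were all at or below 0, with a median of -0.86. Syk itself was at 6.75, 10.4 and 5.7 CPM on average in young WT, old WT and old KO livers (edgeR adjusted p of 0.0658 with age and 0.116 with genotype). By group means Tyrobp stood at 13.7 CPM in old WT and 6.62 CPM in old KO livers, and Trem2 at 7.21 and 6.15 CPM, and the change of their ratio was not tested.

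Of 7 receptors for osteopontin, all tested, 1 rose and 1 fell with age. Among all 14258 genes tested 9.92% were called higher and 1270 genes lower. The integrin Itgb5 rose with age (log2 fold change 0.59, edgeR adjusted p = 0.000119) and the integrin Itgb3 fell (-1.07, adjusted p = 0.00206). Cd44 was at 10.3, 13.1 and 7.93 CPM on average in the 3 groups (edgeR adjusted p of 0.377 with age and 0.295 with genotype), and none of the 7 was called between the old genotypes.

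Kupffer cell markers, such as the lectin Clec4f and the complement receptor Vsig4, describe the resident cells. Of 12 markers 1 rose with age, against 9.92% of genes tested, with a median of 0.25 over the 12. It was Slc40a1, an iron exporter that other liver cells make as well (log2 fold change 0.75, edgeR adjusted p = 0.00333). In old KO livers 4 fell, against 0.421% of genes tested, with a median of -0.99 over the 12. These were Cd5l (-1.47), Clec4f (-1.27), Vsig4 (-1.19) and Folr2 (-1.18), with edgeR adjusted p of 0.0247 to 0.0484. Of the 12 macrophage common genes none was called with age, and 5 fell in old KO livers (C1qa, C1qb, C1qc, Spi1 and Cd68, with log2 fold changes of -1.22 to -0.91 and edgeR adjusted p of 0.0223 to 0.0459), with medians of 0.48 and -1.01. Tyrobp, Cd68, Itgam, Fabp4 and Clec1b each stand on 2 lists.

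**Figure D4:**
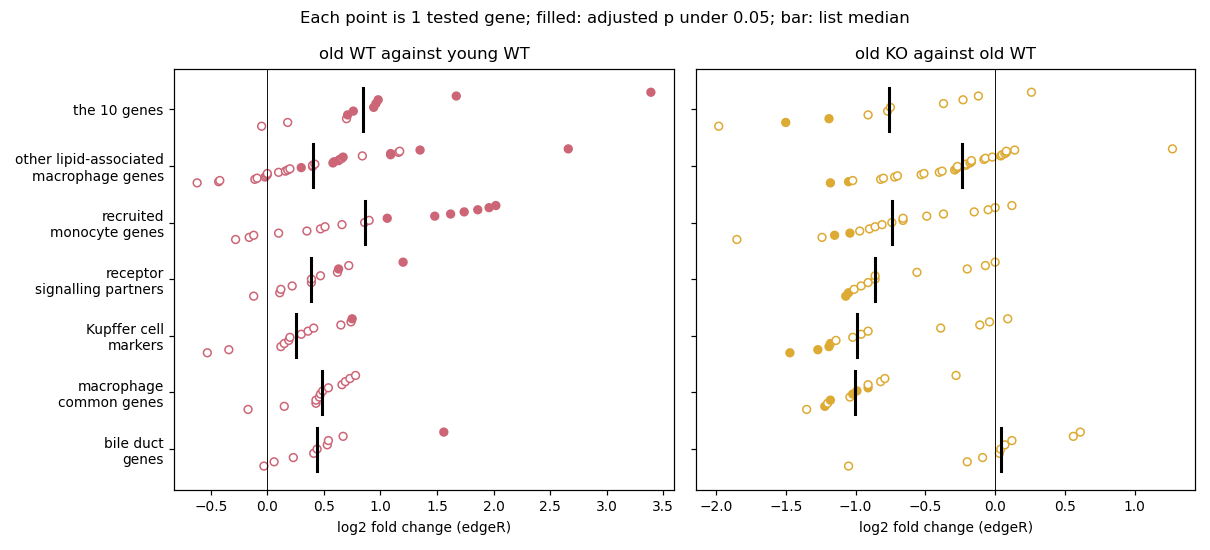
Log2 fold change (horizontal axis, edgeR) of each tested gene in 7 lists, for old against young WT livers and for old KO against old WT livers, with filled points where the adjusted p was under 0.05 and a bar at the list median. The medians with age are 0.85 for the 10 genes and 0.25 for Kupffer cell markers, and those with genotype are -0.76 and -0.99.

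Other cells that can make these transcripts were checked through their defining genes. Across all 14258 genes tested 9.92% were called higher with age, and 1270 genes lower. Of 10 bile duct genes, 9 were tested and 1 rose with age (Tspan8, log2 fold change 1.56, edgeR adjusted p = 0.0372), while Krt19, Krt7, Sox9 and Epcam did not pass, and none was called between the old genotypes. Their summed level was 23.9 to 36.7 CPM in young WT, 22.5 to 53.9 CPM in old WT and 28.3 to 43.4 CPM in old KO livers. Neutrophil genes summed to 2.5 to 5.15, 3.22 to 15 and 2.46 to 10.8 CPM, and Ly6g, their defining marker, had a mean of 0.00625 CPM in old WT livers and was at 0 in the other groups. Of 10 stellate cell and fibroblast genes Col3a1 rose (1.01, edgeR adjusted p = 0.0449) and Reln fell (-0.57, adjusted p = 0.0348) with age, and none was called with genotype. Of 6 adipocyte genes 2 were tested. Cidec, a lipid droplet protein that fatty hepatocytes also make, fell with age from a mean of 45.8 to 4.99 CPM (-3.21, edgeR adjusted p = 0.0036), Plin4 was at 51.3 and 47.6 CPM (adjusted p = 0.864), and Adipoq and Lep were at or under 0.103 CPM on average in every group. Of 8 platelet genes 3 were tested and Ppbp rose with age (1.64, edgeR adjusted p = 0.0152). Of 8 hepatocyte identity genes Apoa1 and Cps1 fell with age. In old KO against old WT livers all 8 had higher values, with a median log2 fold change of 0.22, and none was called. The part of these cells in the results was not tested.

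Relatives of the 10 genes in the same families were followed because some of them can share reads with the 10 genes. Of 50-base stretches of the longest coding transcript, 43.6% of Fabp5, 18.3% of Lyz2, 9.63% of Itgax, 7.63% of Cd9 and 0.32% of Gpnmb also occur elsewhere in the genome or in another coding transcript, and none of Trem2, Spp1, Lgals3, Mmp12 and Clec7a. Lyz2 shares them with Lyz1, which was at 0.107, 0.147 and 0.128 CPM on average in young WT, old WT and old KO livers. Itgax shares them with Itgad, which was at 0.0183, 0.116 and 0.017 CPM. How reads with several places were counted is not given in the sources used here, so levels of Fabp5 and Lyz2 are uncertain to that extent.

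No 50-base stretch of Clec7a, Mmp12 or Trem2 occurs elsewhere, and their relatives are given as genes in their own right. Among these relatives 3 genes were called in 1 or both of the first comparisons. Clec12a, an inhibitory lectin receptor, rose with age (log2 fold change 0.86, edgeR adjusted p = 0.0288) and fell in old KO livers (-1.26, adjusted p = 0.0459). The metalloproteinase Mmp27 rose with age (1.42, edgeR adjusted p = 0.00152) and fell in old KO livers (-1.83, adjusted p = 0.00472), at means of 0.697, 1.87 and 0.515 CPM. Treml4, a receptor of the Trem family, fell in old KO livers (-1.19, edgeR adjusted p = 0.0484). Among all genes tested 9.92% were called higher with age and 0.421% lower in old KO livers.

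Levels were compared between genes per kilobase of the longest coding transcript. The exons of all transcripts of a gene span more in some cases. They span 4946 against 1088 bases for Trem2, 3567 against 987 for Fabp5 and 7237 against 3607 for Mmp12. The order by that longer span was not examined. In old WT livers the order was Lyz2 (54.2 CPM per kb), Spp1 (42.2), Cd9 (11.3), Trem2 (6.63), Clec7a (5.23), Lgals3 (4.9), Fabp5 (2.49), Mmp12 (1.5), Gpnmb (1.31) and Itgax (0.678). The ranges of the libraries overlapped for every pair of neighbours in that order except Spp1 (23.3 to 63.1 CPM per kb) and Cd9 (8.34 to 15.7 CPM per kb). Gpnmb fell below Itgax without old WT liver 7, at 0.498 against 0.641 CPM per kb, an omission chosen after seeing the data. Lyz2 and Spp1 exchanged places in old KO livers, at 32.1 and 38.8 CPM per kb, with overlapping ranges.

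Across the 15 libraries the 10 genes did not all vary together. Pearson's r of log2 CPM was highest for Lgals3 with Clec7a (0.87) and for Trem2 with Gpnmb (0.86), and after group means were removed these were 0.56 and 0.67. The correlation of a gene with the average of the other 9 ranged from 0.85 for Gpnmb and 0.84 for Itgax to 0.39 for Fabp5 and 0.12 for Cd9. The libraries share groups and depth, so these values are descriptions.

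The average of the 10 scaled genes was highest in old WT liver 7 (1.68) and lowest in young WT liver 1 (-0.99), and old KO livers stood between -0.83 and 0.29. The 10 other genes whose log2 CPM followed this average most closely over the 15 libraries were Havcr2 (r = 0.933), Blnk (0.924), Capg (0.908), Adam8 (0.893), Lsp1 (0.889), Chst11 (0.886), Pkm2 (0.886), Emp3 (0.884), Olfm3 (0.877) and Cpxm1 (0.876). After group means were removed r was 0.81 for Havcr2, which encodes the immune checkpoint receptor TIM-3, 0.80 for Blnk and 0.76 for Capg. Havcr2 was at 0.446 CPM on average in young WT and at 1.14 CPM in old WT livers.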

How the data were processed

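Whole-liver RNA of 15 mice was sequenced by the authors from stranded poly(A) libraries with single-end 50-base reads. Reads were mapped to mm9 (TopHat2 2.0.11 per the labels) and counted per gene with HTSeq, so the deposited values are raw counts, not normalized and not pooled. The annotation, the strand setting and the handling of reads with several places are not given in the sources used here. Groups and animal numbers come from sample titles.

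All columns of the table were matched to 1 title each. Counts were scaled by TMM, filtered with filterByExpr on the 3 groups and fitted with edgeR 4.0.16 (R 4.3.3, glmQLFit and glmQLFTest) to all 15 libraries, with 3 contrasts and Benjamini-Hochberg adjustment over 14258 genes at a threshold of 0.05. Adjusted p-values are from edgeR unless a permutation test is named. DESeq2, the tool of the authors (1.18.1 per the labels, design not stated), was an alternative in version 1.42.0. A prior count of 2 was added for log2 CPM, and CPM was taken on TMM-adjusted library sizes. The fit was tested on simulated data. Replicates within groups differed beyond sampling noise in all 30 pairs (chi-square divided by its degrees of freedom, 18.2 to 118). Alternatives were another scaling, no filter, at least 10 counts in every library, the 10 libraries of a contrast alone, a replicate block, and each library left out. The 10 genes, the lists and the tests were chosen with earlier results of these data known, and the lists were written from general knowledge. All genes of the lists matched the table by symbol or synonym. Named were all 10 genes, genes of the lists past the threshold (by rule up to 6 a list in order of adjusted p, with some left out and others added after values were seen) and the 10 genes most like the average. For 1 gene that this rule would name, the result is not reported here. Counts limit the precision most for Gpnmb, Itgax and Fabp5.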

Additional observations from a re-analysis of the deposited data

Results flagged for a closer look

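In 30 groups of 5 values (10 genes in 3 groups) 2 single livers stood far from the others of their group by Dixon's test, which flags about 1 in 20 groups by chance. Gpnmb in old WT liver 7 was at 17.3 CPM, with the other 4 old WT livers at 1.07 to 2.39 CPM, and the gap made up 0.919 of the range. Lgals3 in old KO liver 5 was at 4.65 CPM, with the others at 2.44 to 2.94 CPM, and the gap made up 0.774 of the range. Without these livers Gpnmb kept its call with age and Lgals3 its call with genotype (edgeR).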

How the results depend on the processing

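The number of the 10 genes called with age was 7, and was 6 to 8 with DESeq2, another scaling, other filters or the 10 libraries alone. It was 3 to 8 when single libraries were left out. Between old KO and old WT livers it was 2 under the same alternatives and 0 to 2 with single libraries left out, and between old KO and young WT livers it was 2 or 3, and 1 to 3. With animal numbers as a replicate block the counts were 1, 0 and 2, the last with Gpnmb gained (adjusted p = 0.0241) and Spp1 lost (0.099). Nothing in the labels says that the numbers pair the animals. Correlations of deviations in 9 same-numbered pairs were -0.153 to 0.077, and 0 of 12 libraries correlated best with its own number. These values gave no sign of pairing but cannot exclude it. Animal numbers 3, 7 and 10 each occur in 1 group alone, so those livers add nothing to the comparisons under the block. Under the block the log2 fold change of Fabp5 with age was -0.43 and that of Spp1 with genotype 0.10, both opposite in sign to the value without it. Leaving out single libraries turned the sign of 5 values that had not passed the threshold. With age these were Cd9 (-0.19 to 0.08) and Fabp5 (-0.13 to 0.63), with genotype Spp1 (-0.28 to 0.07) and Fabp5 (-0.03 to 0.57), and between old KO and young WT livers Mmp12 (-0.15 to 0.07). The cause was not tested. Relative to macrophage genes, 3 calls were lost when any 1 library of 1 of their groups was left out. They were Trem2 with genotype, Itgax with age and Gpnmb between old KO and young WT livers. Their groups did not overlap in full, so they did not overlap with a library left out either. Fewer assignments make the steps of the exact permutation p coarser. The lost calls therefore do not show that these shifts rest on single libraries. Gpnmb was not tested where 10 counts were required in every library.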
